A study of Mus musculus with 25 samples.

Results

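Aminoacyl-tRNA synthetases are the enzymes that join each amino acid to its transfer RNA. Their genes were taken from the array annotation by symbol: the bare or numbered names of the cytosolic enzymes, the names ending in 2 of the mitochondrial enzymes, and the Farsa, Farsb and Fars2 genes. The search found 35 genes among the 18193 genes that have a probe set with 1 symbol, 19 of them cytosolic and 16 mitochondrial. Each gene was read from its brightest probe set of 72 in all, chosen by the mean over all arrays and not by any change with dose.

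The cells were RAW 264.7, an established mouse macrophage line, with no transgene or deletion named in the labels. They had been kept for 6 h in medium with hypochlorous acid (HOCl), the oxidant made by neutrophil myeloperoxidase. The groups were 0 mM HOCl with 4 arrays, low doses of 0.14, 0.35 and 0.7 mM, and higher doses of 1.4 and 2.1 mM and of 2.8 and 3.5 mM, with 3 arrays at each dose and 25 in all. Every group shared the serum-containing growth medium, and the study's design text calls the replicates biological. That text states 3 replicates, while 4 arrays are labelled 0 mM, and the reason is not given in the sources used here.

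In the cytosol several synthetases (among them those for glutamate and proline, isoleucine, leucine, glutamine, methionine, lysine and arginine) sit with 3 scaffold proteins in the multi-synthetase complex, while others work outside it. Mitochondria use a separate set of nuclear-encoded enzymes to translate the few proteins of the respiratory chain that mitochondrial DNA encodes, with the lysyl and glycyl enzymes made from 1 gene for both compartments. When amino acids run short or the cell is stressed, kinases phosphorylate the initiation factor eIF2, the transcription factor ATF4 is made, and ATF4 is known to bind promoters of many cytosolic synthetase genes together with C/EBP proteins. The site it reads, the C/EBP-ATF response element, has the core TGATGNAA.

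Promoters of 26 of the 35 genes, 12 cytosolic and 14 mitochondrial, were in the RefSeq table used (mouse build GRCm38.p6, 250 bases before to 50 after the start). TGATGNAA was present on either strand in 5 of the 12 cytosolic windows (41.7%) and in 0 of the 14 mitochondrial windows. Over all 32851 promoter windows of the same length it was present in 1304 (3.97%). The 5 windows that hold it belong to Aars, Gars, Iars, Tars and Yars, the genes for the alanyl, glycyl, isoleucyl, threonyl and tyrosyl enzymes. They are shown because they are the members whose start regions carry the ATF4 core, which stands in capitals in the gene's own direction. In the first 4 the capitals are the reverse complement of the core, and in Yars the core itself. Aars lies on the plus strand at chr8:111033592-111033891, Gars on plus at chr6:55037751-55038050, Iars on plus at chr13:49681880-49682179, Tars on minus at chr15:11399609-11399908 and Yars on plus at chr4:129189653-129189952.
Aars: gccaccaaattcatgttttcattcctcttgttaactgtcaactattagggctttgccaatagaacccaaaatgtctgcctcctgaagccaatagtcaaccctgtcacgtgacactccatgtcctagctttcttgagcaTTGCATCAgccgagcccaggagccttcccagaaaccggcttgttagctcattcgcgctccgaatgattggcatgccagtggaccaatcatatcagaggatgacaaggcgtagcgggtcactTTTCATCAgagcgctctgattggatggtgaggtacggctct
Gars: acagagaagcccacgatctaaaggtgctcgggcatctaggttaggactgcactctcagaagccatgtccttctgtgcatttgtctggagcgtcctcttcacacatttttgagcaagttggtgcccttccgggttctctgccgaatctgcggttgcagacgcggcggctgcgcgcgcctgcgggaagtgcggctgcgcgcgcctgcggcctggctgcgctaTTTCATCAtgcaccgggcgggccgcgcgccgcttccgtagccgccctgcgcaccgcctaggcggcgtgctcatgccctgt
Iars: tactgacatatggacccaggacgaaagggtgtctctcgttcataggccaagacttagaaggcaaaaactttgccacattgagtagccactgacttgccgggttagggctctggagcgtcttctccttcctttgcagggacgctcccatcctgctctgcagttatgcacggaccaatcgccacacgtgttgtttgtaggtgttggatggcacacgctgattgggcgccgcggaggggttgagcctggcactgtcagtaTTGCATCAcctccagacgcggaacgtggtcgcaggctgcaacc
Tars: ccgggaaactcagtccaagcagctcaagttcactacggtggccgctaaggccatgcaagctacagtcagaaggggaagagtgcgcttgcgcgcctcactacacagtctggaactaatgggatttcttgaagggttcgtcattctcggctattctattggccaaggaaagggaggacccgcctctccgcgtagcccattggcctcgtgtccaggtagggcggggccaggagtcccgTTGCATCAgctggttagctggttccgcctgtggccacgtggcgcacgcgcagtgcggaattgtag
Yars: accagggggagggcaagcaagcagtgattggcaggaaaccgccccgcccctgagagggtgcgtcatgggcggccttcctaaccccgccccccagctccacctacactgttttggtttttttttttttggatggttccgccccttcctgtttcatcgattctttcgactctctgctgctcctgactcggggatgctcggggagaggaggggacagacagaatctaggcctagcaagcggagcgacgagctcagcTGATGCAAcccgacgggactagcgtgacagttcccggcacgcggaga
Counted from the start site, the first capital was at -112 and at 10 in Aars, which has 2 matches, at -30 in Gars, at 8 in Iars, at -15 in Tars and at 4 in Yars. The core of the antioxidant response element read by NRF2, TGACNNNGC, was searched in the same way. It was present in 3 of 12 cytosolic windows (25%: Aars, Iars and Mars1), in 3 of 14 mitochondrial windows (21.4%: Aars2, Lars2 and Nars2) and in 4071 of all windows (12.4%). No match of one core overlapped a match of the other. A match describes these letters only, and binding was not measured.

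Values are log2 signals from which each array's median had been taken, so that 0 is the median probe set of that array, and a difference of 1 is a 2-fold change. The 19 cytosolic probe sets all lay in the upper part of the array, from the 88th to the 98.7 percentile of mean signal, and the mitochondrial ones from the 28.3 to the 88.6 percentile, with only Mars2 below the median. Signals of different probe sets are not comparable with each other, so genes are compared by their changes. Of 10 macrophage markers, all had a mean above the array median (2.57 to 8.18). Of 12 measured markers of other cell types, 8 lay below it, and the mean of the list stayed between -0.20 and 0.11 on every array. The macrophage list mean was 5.38 to 6.01, with the lowest value at 1.4 mM. In the F test 5 of these 10 markers passed, against 28% of genes. At 0.35 mM Cd14 rose (0.66, limma adjusted p = 0.0449) and Adgre1 fell (-1.29, adjusted p = 0.0177). Spi1 fell at 1.4 mM (-0.89, limma adjusted p = 0.0423). Adgre1 (-1.07) and Fcgr1 (-1.38) fell at 2.1 mM (limma adjusted p = 0.0232 and 0.0313), and Spi1 (-0.92) and Ptprc (-0.62) at 2.8 mM (adjusted p = 0.0276 and 0.00583). Fcgr1 (1.72), Ptprc (0.47) and Tyrobp (0.28) rose from 2.8 to 3.5 mM (limma adjusted p = 0.0148, 0.0431 and 0.035). Of the markers of other cell types, the B cell genes Ms4a1 at 2.1 mM (0.57, adjusted p = 0.0203) and Cd79a in the F test (adjusted p = 0.0319) passed. The part of these markers in the synthetase changes at the same doses was not tested.

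The poly-A control RNAs that are added during array preparation were at a low level on all arrays of 0 and 0.14 mM and on replicates 1 and 2 of 0.35 and 0.7 mM. They were at a high level on replicate 3 of 0.35 and of 0.7 mM and on all arrays from 1.4 mM upwards. From 1.4 mM this spike level therefore moved together with the dose against 0 mM, and the 2 cannot be told apart there. A limma fit with the spike level as a term, which rests on the 2 doses with both levels, kept 0 of the 27 calls of members against 0 mM (adjusted p 0.0648 to 0.89). On low level arrays alone, 1 of the 2 calls at 0.35 mM was kept. All arrays of 2.8 and 3.5 mM have the same high level, and the 7 calls between these doses were kept with the term.

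Over the 7 doses, 15 of the 35 genes differed from 0 mM in the limma F test (adjusted p under 0.05), against 24.7% of all 45037 probe sets and 28% of genes. They were 9 of 19 cytosolic and 6 of 16 mitochondrial genes. Of the 9 cytosolic genes, Kars, Mars1, Qars and Rars belong to the 7 measured genes of the multi-synthetase complex, and Vars, Tars, Nars, Cars and Yars to the 12 outside it. The mitochondrial ones were Wars2, Tars2, Ears2, Fars2, Vars2 and Hars2. These calls, like those below, are of the brightest probe set, and where another probe set of the gene passed against 0 mM or in the F test and the brightest did not, the gene's account says so. Of the 15, 10 passed whichever of the 25 arrays was left out: Kars, Qars, Rars, Tars, Vars, Ears2, Fars2, Tars2, Vars2 and Wars2. Leaving out 0.14 mM replicate 1 or 2 reduced the cytosolic count from 9 to 5.

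**Figure D1:**
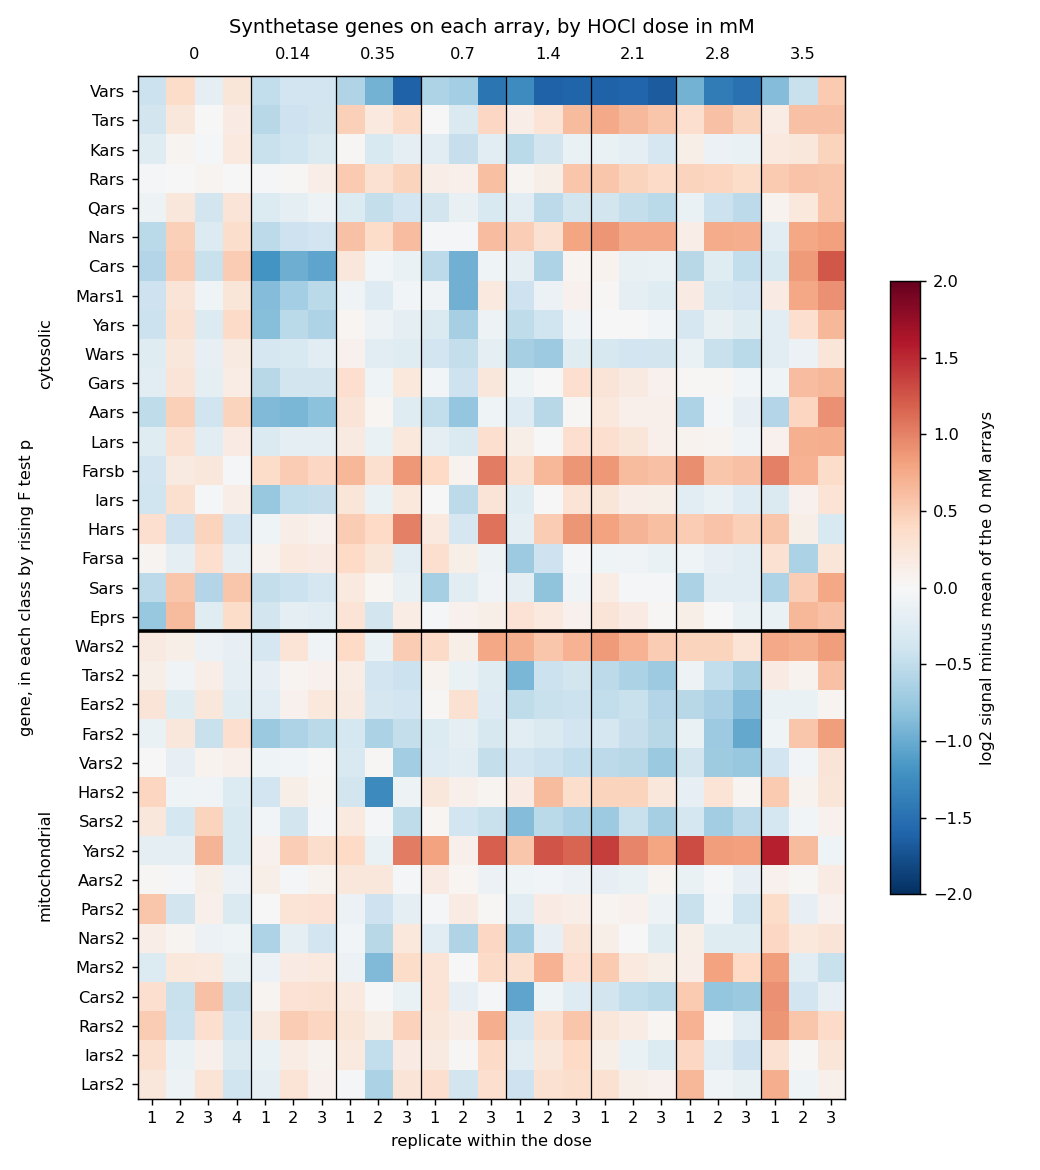
Log2 signal of 35 synthetase genes (rows, by class and rising F test p) on 25 arrays (columns, by dose and replicate), as the difference from the mean of the 4 arrays at 0 mM. Vars is lowest from 1.4 to 2.8 mM, cytosolic genes are mostly low at 0.14 mM, and replicates 2 and 4 of 0 mM and 2 and 3 of 3.5 mM are high for most cytosolic genes.

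The number of members called at a single dose ran from 0 at 0.14 and 0.7 mM to 12 at 2.1 mM. At 0.14 mM 0 of 35 passed the limma test, where 0.00444% of all probe sets were called. An unadjusted p under 0.05 was found there for 9 of the 35 and for 1601 of the 18193 genes. At 0.35 mM Rars and Vars passed (6.43% of probe sets, 7.67% of genes). At 0.7 mM 0 passed, where 0.133% of all were called. Of the members 7 had an unadjusted p under 0.05 there, as had 2313 of the 18193 genes. At 1.4 mM 5 passed (7.81% of probe sets, 8.91% of genes) and at 2.1 mM 12 (13.4%, 15.5% of genes). At 2.8 mM 5 passed (11.9%, 14.3% of genes) and at 3.5 mM 3 (9.32%, 9.37% of genes). The 5 at 2.8 mM were 14.3% of the 35, the same share as over all genes. The 12 members at 2.1 mM, 34.3% of the 35, were 6 cytosolic and 6 mitochondrial, with 6 higher and 6 lower, and the 3 at 3.5 mM were all higher. These comparisons share the 4 arrays at 0 mM. Groups that do not overlap 0 mM are common in these data. Of the 18193 genes, all arrays lay above those of 0 mM in 773, 1230, 785, 1699, 2882, 2152 and 2296, from 0.14 to 3.5 mM. They lay all below in 927, 1612, 672, 1884, 2736, 1836 and 1228. Another scaling changed the balance of all calls at 0.35 mM, where 26.6% of called probe sets were higher, and 37.4% after quantile normalization.

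Vars, the valyl-tRNA synthetase, had the deepest fall of the family. Its signals were 4.71, 5.51, 4.97 and 5.38 at 0 mM, 4.64, 4.75 and 4.76 at 0.14 mM, 4.54, 4.20 and 3.53 at 0.35 mM, and 4.53, 4.47 and 3.68 at 0.7 mM. From 1.4 mM they were 3.88, 3.53 and 3.54 at 1.4 mM, 3.53, 3.56 and 3.48 at 2.1 mM, 4.19, 3.74 and 3.65 at 2.8 mM, and 4.27, 4.70 and 5.66 at 3.5 mM. All 9 arrays of 1.4, 2.1 and 2.8 mM lay below all 4 at 0 mM, and the 3 arrays of 3.5 mM spread from below to above the 0 mM range. The mean was 5.14 ± 0.367 (SD, n = 4) at 0 mM and 3.52 ± 0.0408 (SD, n = 3) at 2.1 mM, a 3.07-fold lower signal (log2 change -1.62, SE 0.283, limma adjusted p = 0.00119). The falls at 1.4 mM (log2 change -1.49, SE 0.283, limma adjusted p = 0.00431) and 2.8 mM (log2 change -1.28, SE 0.283, limma adjusted p = 0.00617) also passed whichever array was left out. At 0.35 mM the fall of 1.05 (SE 0.283, limma adjusted p = 0.0318) was lost without 0 mM replicates 2 or 4 or 0.35 mM replicates 2 or 3 (adjusted p 0.0891 to 0.115). On low spike level arrays alone it was -0.77 (limma adjusted p = 0.0655), and replicate 3 of 0.35 and of 0.7 mM, the arrays with a high spike level, had the lowest Vars signal of their dose. With the spike level as a term the change at 2.1 mM was -0.79 (limma adjusted p = 0.392). Vars has 1 probe set on the array. In RNA from whole cultures, fewer cells that hold a transcript and less of it per cell cannot be told apart, here and for every member.

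Rars, which makes the arginyl enzyme of the complex, rose at 4 doses by small amounts with narrow spread. Its signals were 5.56, 5.60, 5.65 and 5.60 at 0 mM, 5.58, 5.64 and 5.74 at 0.14 mM, 6.12, 5.91 and 6.04 at 0.35 mM, and 5.73, 5.70 and 6.20 at 0.7 mM. At the higher doses they were 5.67, 5.71 and 6.16 at 1.4 mM, 6.15, 6.06 and 5.98 at 2.1 mM, 6.05, 6.03 and 5.97 at 2.8 mM, and 6.13, 6.17 and 6.17 at 3.5 mM. At every dose from 0.35 mM upwards all arrays lay above the 4 arrays at 0 mM, which span only 5.56 to 5.65. At 0.7 and 1.4 mM replicates 1 and 2 were only just above them, and only replicate 3 stood well apart. The rise at 3.5 mM (log2 change 0.55, SE 0.115, limma adjusted p = 0.00402) passed whichever array was left out. That at 2.1 mM (log2 change 0.46, SE 0.115, limma adjusted p = 0.0118) was lost without 2.1 mM replicate 1 (adjusted p = 0.0631). At 2.8 mM (log2 change 0.41, SE 0.115, limma adjusted p = 0.0241) the call was lost without 0 mM replicate 4 or any array of 2.8 mM (adjusted p 0.0505 to 0.0895). At 0.35 mM (log2 change 0.42, SE 0.115, limma adjusted p = 0.0342) it was lost without 0 mM replicates 1, 2 or 4 or any array of 0.35 mM (adjusted p 0.0573 to 0.114). On low spike level arrays alone the change at 0.35 mM was 0.41 (limma adjusted p = 0.0442). With the spike level as a term the change was 0.30 at 3.5 mM (limma adjusted p = 0.27).

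Tars, the threonyl enzyme, first had low and then high signals along the doses. They were 4.18, 4.77, 4.54 and 4.71 at 0 mM, 3.99, 4.14 and 4.18 at 0.14 mM, 5.02, 4.75 and 4.94 at 0.35 mM, and 4.56, 4.26 and 4.97 at 0.7 mM. Above these doses they were 4.68, 4.82 and 5.19 at 1.4 mM, 5.30, 5.20 and 5.12 at 2.1 mM, 4.88, 5.15 and 5.00 at 2.8 mM, and 4.70, 5.14 and 5.14 at 3.5 mM. The 3 arrays of 0.14 mM were at or below the lowest of 0 mM, and those of 2.1 mM lay above all 4. From 0.14 to 0.35 mM Tars was the only member that passed the limma test, against 3.37% of probe sets (log2 change 0.80, SE 0.176, limma adjusted p = 0.02; 0.78 and adjusted p = 0.0486 on low spike level arrays alone). This call was lost without any array of 0.14 mM or without 0.35 mM replicates 1 or 3 (adjusted p 0.0505 to 0.0827). Leaving out 3.5 mM replicate 1 or 0.7 mM replicate 3 raised the number of members called at this step from 1 to 4. Against 0 mM, Tars rose at 2.1 mM (log2 change 0.66, SE 0.165, limma adjusted p = 0.0118), and the call was lost without 2.1 mM replicate 1 (adjusted p = 0.0586).

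Farsb and Nars rose as well. Farsb encodes the beta subunit of the phenylalanyl enzyme, a tetramer of 2 alpha chains, made from Farsa, and 2 beta chains. Its signals were 4.42, 4.99, 5.05 and 4.79 at 0 mM, 5.17, 5.32 and 5.23 at 0.14 mM, 5.47, 5.13 and 5.67 at 0.35 mM, and 5.21, 4.88 and 5.84 at 0.7 mM, with all 3 arrays of 0.14 mM above all 4 of 0 mM. From 1.4 mM upwards they were 5.14, 5.48 and 5.70 at 1.4 mM, 5.68, 5.45 and 5.39 at 2.1 mM, 5.74, 5.36 and 5.39 at 2.8 mM, and 5.82, 5.52 and 5.18 at 3.5 mM. Every array of 1.4 mM and above lay over the highest array of 0 mM. The change was similar at 2.1 mM (log2 change 0.70, SE 0.206, limma adjusted p = 0.0294), 2.8 mM (log2 change 0.69, SE 0.206, limma adjusted p = 0.035) and 3.5 mM (log2 change 0.69, SE 0.206, limma adjusted p = 0.0381). All 3 calls were lost without 0 mM replicates 1 or 4, and without any array of 2.1 or of 2.8 mM or replicates 1 or 2 of 3.5 mM in the comparison of that dose (adjusted p 0.0588 to 0.175). The other 3 Farsb probe sets also read higher, by 0.35 to 1.19 at 2.1 mM, and 1 of them passed at 2.1, 2.8 and 3.5 mM and in the F test (adjusted p = 0.00576), which the brightest did not (adjusted p = 0.1). Farsa signals were 3.65, 3.41, 3.94 and 3.40 at 0 mM, and 3.52, 3.53 and 3.47 at 2.1 mM. This brightest Farsa probe set passed at no dose, with a log2 change of -0.09 at 2.1 mM. Of the other 3 Farsa probe sets, 1 passed the F test (adjusted p = 0.0396) and was lower at 3.5 mM (-1.04, limma adjusted p = 0.0255), where the brightest had a change of -0.03. The difference between the 2 subunits was not tested.

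Nars, the asparaginyl enzyme, had signals of 5.21, 6.22, 5.48 and 6.10 at 0 mM, 5.23, 5.34 and 5.36 at 0.14 mM, 6.33, 6.12 and 6.36 at 0.35 mM, and 5.73, 5.72 and 6.37 at 0.7 mM. Its higher-dose arrays read 6.24, 6.06 and 6.55 at 1.4 mM, 6.64, 6.52 and 6.51 at 2.1 mM, 5.89, 6.50 and 6.48 at 2.8 mM, and 5.54, 6.53 and 6.57 at 3.5 mM. The 3 arrays of 2.1 mM lay above all 4 at 0 mM, which themselves formed a high and a low pair. The rise at 2.1 mM (log2 change 0.80, SE 0.252, limma adjusted p = 0.0398) was lost without 0 mM replicates 1 or 3 or any array of 2.1 mM (adjusted p 0.0854 to 0.125), and after quantile normalization (0.63, adjusted p = 0.0926). Hars, the histidyl enzyme, had a change of 0.70 at 2.1 mM in its brightest probe set and did not pass there (limma adjusted p = 0.126), while its second probe set passed with 0.91 (adjusted p = 0.0198).

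Qars and Wars read lower at the middle doses. Qars, the glutaminyl enzyme of the complex, had signals of 5.45, 5.76, 5.17 and 5.79 at 0 mM, 5.27, 5.36 and 5.44 at 0.14 mM, 5.27, 5.07 and 5.16 at 0.35 mM, and 5.18, 5.39 and 5.23 at 0.7 mM. The arrays of the higher doses read 5.32, 5.01 and 5.18 at 1.4 mM, 5.18, 5.07 and 5.00 at 2.1 mM, 5.41, 5.12 and 5.02 at 2.8 mM, and 5.61, 5.75 and 6.09 at 3.5 mM. Replicate 3 of 0 mM was level with the highest array of 2.1 mM, so the groups overlapped. Its fall at 2.1 mM (log2 change -0.46, SE 0.14, limma adjusted p = 0.0339) was lost without 0 mM replicates 2 or 4 or any array of 2.1 mM (adjusted p 0.0633 to 0.12). Of the other 3 Qars probe sets, 2 read lower and 1 of these passed, while the one with the largest variance read higher by 0.15 (adjusted p = 0.735). The probe set that passed at 2.1 mM also passed at 0.35 mM (-0.42, adjusted p = 0.0448), where the brightest had -0.38 (adjusted p = 0.111). Wars, the tryptophanyl enzyme and an interferon-induced gene, had signals of 3.83, 4.32, 3.92 and 4.27 at 0 mM, 3.75, 3.79 and 3.86 at 0.14 mM, 4.18, 3.86 and 3.84 at 0.35 mM, and 3.71, 3.62 and 3.89 at 0.7 mM. From 1.4 mM upwards they were 3.42, 3.37 and 3.83 at 1.4 mM, 3.77, 3.70 and 3.71 at 2.1 mM, 3.95, 3.63 and 3.55 at 2.8 mM, and 3.86, 3.98 and 4.32 at 3.5 mM. It fell at 1.4 mM (log2 change -0.55, SE 0.144, limma adjusted p = 0.0255), with 1 array of that dose level with the lowest array of 0 mM, and 1 of its other 3 probe sets passed the same way. The Wars call was lost without 0 mM replicates 2 or 4 or 1.4 mM replicates 1 or 2 (adjusted p 0.0653 to 0.11). Leaving out 2.1 mM replicate 1 reduced the 6 cytosolic calls of that dose to 1, and leaving out replicate 2 or 3 to 3.

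Cars, Kars, Mars1 and Yars passed the F test but not at any single dose against 0 mM in their brightest probe sets. Cars, the cysteinyl enzyme, had signals of 2.85, 3.95, 2.99 and 3.94 at 0 mM, 2.23, 2.47 and 2.38 at 0.14 mM, 3.65, 3.37 and 3.29 at 0.35 mM, and 2.91, 2.47 and 3.36 at 0.7 mM. Above 0.7 mM the signals were 3.25, 2.82 and 3.49 at 1.4 mM, 3.50, 3.29 and 3.30 at 2.1 mM, 2.87, 3.19 and 2.94 at 2.8 mM, and 3.12, 4.28 and 4.68 at 3.5 mM. The 3 arrays of 0.14 mM lay below all 4 of 0 mM (log2 change -1.07, limma adjusted p = 0.374), and replicates 2 and 3 of 3.5 mM were the highest of all. The second, dimmer Cars probe set passed at 2.8 mM (0.29, limma adjusted p = 0.0386) and 3.5 mM (0.31, adjusted p = 0.0369), where the brightest had -0.43 and 0.59 and did not pass. Kars, the lysyl enzyme of cytosol and mitochondria, had signals of 4.36, 4.67, 4.59 and 4.81 at 0 mM, 4.17, 4.21 and 4.32 at 0.14 mM, 4.63, 4.29 and 4.43 at 0.35 mM, and 4.40, 4.15 and 4.38 at 0.7 mM. Its values at the higher doses were 4.07, 4.25 and 4.48 at 1.4 mM, 4.47, 4.42 and 4.27 at 2.1 mM, 4.73, 4.50 and 4.47 at 2.8 mM, and 4.81, 4.84 and 5.06 at 3.5 mM, with its highest array at 3.5 mM. Yars signals were 2.90, 3.64, 3.06 and 3.72 at 0 mM, 2.48, 2.79 and 2.72 at 0.14 mM, 3.37, 3.23 and 3.14 at 0.35 mM, and 3.04, 2.67 and 3.23 at 0.7 mM. They were 2.82, 2.93 and 3.26 at 1.4 mM, 3.34, 3.34 and 3.28 at 2.1 mM, 3.00, 3.18 and 3.09 at 2.8 mM, and 3.12, 3.67 and 4.00 at 3.5 mM at the higher doses, with the 3 arrays of 0.14 mM below all of 0 mM. The F test call was lost for Cars without any array of 0.14 mM or 3.5 mM replicates 2 or 3, for Mars1 without 0.14 mM replicates 1 or 2 or 3.5 mM replicates 2 or 3, and for Nars without any array of 0.14 mM (adjusted p up to 0.0705, 0.113 and 0.0722). Yars passed in only 8 of the 25 omissions.

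**Figure D2:**
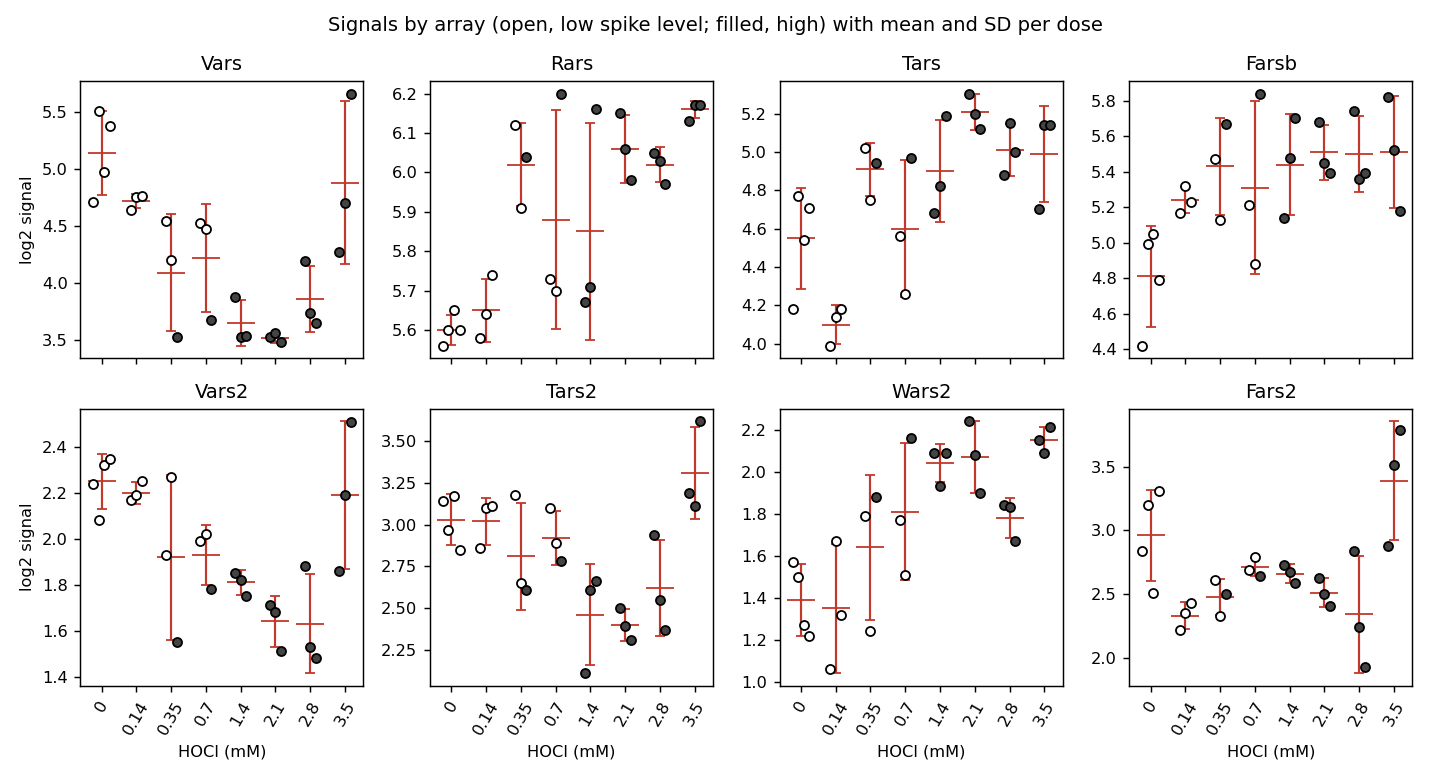
Log2 signal on each array (points) against HOCl dose for 4 cytosolic (upper) and 4 mitochondrial genes (lower), with the mean and SD per dose in red; open points are arrays with a low spike level and filled points arrays with a high one. Vars, Vars2 and Tars2 have their lowest means at 2.1 or 2.8 mM and read higher at 3.5 mM, while Rars and Wars2 stay high at 3.5 mM.

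At 0.14 mM the cytosolic genes leaned low without any of them passing. Their mean relative to 0 mM was -0.45, -0.32 and -0.29 on replicates 1 to 3. Untreated replicate 1 was itself at -0.32, so the arrays overlapped in this mean. The median log2 change of the 19 was -0.42, with 15 of them below 0 and 8 with all 3 arrays below all 4 arrays of 0 mM (4.6% of all probe sets). The median of the 16 mitochondrial genes was 0.03 and that of all genes 0.01. The lowest changes were those of Cars (-1.07) and Aars (-0.88). Aars, the alanyl enzyme, had signals of 3.99, 4.97, 4.11 and 4.95 at 0 mM, 3.61, 3.59 and 3.68 at 0.14 mM, and 4.75, 4.54 and 4.26 at 0.35 mM, so that the 0.14 mM arrays lay close together under both the high and the low pair of 0 mM. At 0.35 mM the cytosolic median was 0.02 and the mitochondrial one -0.14. Besides Aars, the cytosolic genes Eprs, Farsa, Gars, Hars, Iars, Lars and Sars passed neither the F test nor any single comparison in their brightest probe sets. Other probe sets passed for 3 of them: Hars at 2.1 mM, Farsa at 3.5 mM and in the F test, and Iars, the isoleucyl enzyme, in the F test (adjusted p = 0.02, against 0.101 in the brightest). The changes of the brightest probe sets of these 8 genes over the 7 doses ran from -0.88 (Aars at 0.14 mM, limma adjusted p = 0.436) to 0.70 (Hars at 2.1 mM, adjusted p = 0.126).

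Of the mitochondrial genes, Wars2 and Yars2 rose and Tars2, Ears2, Vars2 and Sars2 fell. Wars2, the mitochondrial tryptophanyl enzyme, had signals of 1.57, 1.50, 1.27 and 1.22 at 0 mM, 1.06, 1.67 and 1.32 at 0.14 mM, 1.79, 1.24 and 1.88 at 0.35 mM, and 1.77, 1.51 and 2.16 at 0.7 mM. At the higher doses they were 2.09, 1.93 and 2.09 at 1.4 mM, 2.24, 2.08 and 1.90 at 2.1 mM, 1.84, 1.83 and 1.67 at 2.8 mM, and 2.15, 2.09 and 2.21 at 3.5 mM. All 12 arrays from 1.4 mM upwards lay above all 4 of 0 mM. The rise at 3.5 mM (log2 change 0.77, SE 0.163, limma adjusted p = 0.00498) passed whichever array was left out. That at 2.1 mM (log2 change 0.68, SE 0.163, limma adjusted p = 0.0088) was lost without 2.1 mM replicate 1 (adjusted p = 0.0554), and that at 1.4 mM (log2 change 0.65, SE 0.163, limma adjusted p = 0.0195) without 0 mM replicate 4 or 1.4 mM replicates 1 or 3 (adjusted p 0.0571 to 0.0693). The second Wars2 probe set read higher by 0.20, 0.26 and 0.29 at these doses and did not pass. With the spike level as a term the change at 3.5 mM was 0.32 (limma adjusted p = 0.379).

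Tars2, the mitochondrial threonyl enzyme, had signals of 3.14, 2.97, 3.17 and 2.85 at 0 mM, 2.86, 3.10 and 3.11 at 0.14 mM, 3.18, 2.65 and 2.61 at 0.35 mM, and 3.10, 2.89 and 2.78 at 0.7 mM. From 1.4 mM upwards they were 2.11, 2.61 and 2.66 at 1.4 mM, 2.50, 2.39 and 2.31 at 2.1 mM, 2.94, 2.55 and 2.37 at 2.8 mM, and 3.19, 3.11 and 3.62 at 3.5 mM. The arrays of 1.4 and 2.1 mM lay below all 4 of 0 mM. Tars2 fell at 2.1 mM (log2 change -0.63, SE 0.168, limma adjusted p = 0.0176), a call lost without 2.1 mM replicates 2 or 3 (adjusted p 0.0611 to 0.0743). At 1.4 mM (log2 change -0.57, SE 0.168, limma adjusted p = 0.0412) the call was lost in 10 of 25 omissions: 0 mM replicates 1, 2 or 3, 0.14 mM replicates 2 or 3, 1.4 mM replicates 1 or 2, or any array of 2.1 mM (adjusted p 0.0504 to 0.203). The second Tars2 probe set had changes of -0.25 at 1.4 mM and -0.30 at 2.1 mM and did not pass (adjusted p = 0.298 and 0.168), and it passed as higher at 3.5 mM (0.46, adjusted p = 0.0444), where the brightest did not (0.28, adjusted p = 0.314).

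Vars2, the mitochondrial valyl enzyme, had signals of 2.24, 2.08, 2.32 and 2.35 at 0 mM, 2.17, 2.19 and 2.25 at 0.14 mM, 1.93, 2.27 and 1.55 at 0.35 mM, and 1.99, 2.02 and 1.78 at 0.7 mM. Its higher-dose arrays read 1.85, 1.82 and 1.75 at 1.4 mM, 1.71, 1.68 and 1.51 at 2.1 mM, 1.88, 1.53 and 1.48 at 2.8 mM, and 1.86, 2.19 and 2.51 at 3.5 mM. Every array of 1.4, 2.1 and 2.8 mM lay below the lowest of 0 mM. Vars2 fell at 2.1 mM (log2 change -0.61, SE 0.149, limma adjusted p = 0.01), lost without 2.1 mM replicate 3 (adjusted p = 0.0559), and at 2.8 mM (log2 change -0.62, SE 0.149, limma adjusted p = 0.0107), lost without 2.8 mM replicates 2 or 3 (adjusted p 0.063 to 0.0702). The second Vars2 probe set had changes of -0.45 and -0.52 at these doses and did not pass (adjusted p = 0.101 and 0.0581).

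Ears2, the mitochondrial glutamyl enzyme, had signals of 1.74, 1.25, 1.71 and 1.24 at 0 mM, 1.27, 1.57 and 1.69 at 0.14 mM, 1.66, 1.14 and 1.09 at 0.35 mM, and 1.52, 1.78 and 1.22 at 0.7 mM. The arrays of the higher doses read 0.97, 1.04 and 1.06 at 1.4 mM, 0.99, 1.03 and 0.89 at 2.1 mM, 0.93, 0.84 and 0.62 at 2.8 mM, and 1.35, 1.36 and 1.55 at 3.5 mM. All 9 arrays from 1.4 to 2.8 mM lay below the 4 of 0 mM. It fell at 2.8 mM (log2 change -0.69, SE 0.158, limma adjusted p = 0.00766), lost without 2.8 mM replicate 3 (adjusted p = 0.0581), and at 2.1 mM (log2 change -0.51, SE 0.158, limma adjusted p = 0.0356), lost without 0 mM replicates 1 or 3 or any array of 2.1 mM (adjusted p 0.0797 to 0.121). Its other 3 probe sets moved little, by -0.15 to -0.03 at 2.1 mM and -0.04 to 0.12 at 2.8 mM, and none passed.

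Sars2, the mitochondrial seryl enzyme, had signals of 1.73, 1.15, 1.95 and 1.19 at 0 mM, 1.45, 1.13 and 1.47 at 0.14 mM, 1.70, 1.48 and 1.00 at 0.35 mM, and 1.55, 1.13 and 1.06 at 0.7 mM. Above these doses they were 0.64, 0.97 and 0.87 at 1.4 mM, 0.79, 1.07 and 0.84 at 2.1 mM, 1.15, 0.82 and 0.99 at 2.8 mM, and 1.16, 1.45 and 1.59 at 3.5 mM. It fell at 1.4 mM (log2 change -0.68, SE 0.193, limma adjusted p = 0.0359) and at 2.1 mM (log2 change -0.60, SE 0.193, limma adjusted p = 0.0426), with all arrays of both doses below all 4 of 0 mM. Both calls were lost without 0 mM replicates 1 or 3 or any array of the dose, and that at 2.1 mM also without 0.14 mM replicate 3 or 2.8 mM replicate 3 (adjusted p 0.0508 to 0.146). Quantile normalization also ended both (adjusted p = 0.0612 and 0.0807). Yars2, the mitochondrial tyrosyl enzyme, had signals of 1.78, 1.77, 2.63 and 1.64 at 0 mM, 2.04, 2.44 and 2.31 at 0.14 mM, 2.36, 1.83 and 2.98 at 0.35 mM, and 2.77, 2.05 and 3.15 at 0.7 mM, with replicate 3 of 0 mM well above the other 3. The higher doses gave 2.50, 3.22 and 3.11 at 1.4 mM, 3.34, 2.94 and 2.75 at 2.1 mM, 3.26, 2.79 and 2.78 at 2.8 mM, and 3.51, 2.59 and 1.87 at 3.5 mM. It rose at 2.1 mM (log2 change 1.05, SE 0.344, limma adjusted p = 0.047), but only 9 of 25 omissions kept the call (adjusted p up to 0.182), and the second Yars2 probe set did not pass (0.54, adjusted p = 0.166). Leaving out 2.1 mM replicate 1, 2 or 3 reduced the 6 mitochondrial calls of that dose to 2, 2 and 1, and leaving out 0 mM replicate 1 to 3. At 1.4 mM the 3 mitochondrial calls became 0 without 1.4 mM replicate 1 and 5 without 3.5 mM replicate 1, and at 2.8 mM the 2 became 0 without 2.8 mM replicate 3 and 4 without 0 mM replicate 3, 2.8 mM replicate 1, or 3.5 mM replicates 1 or 3.

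Hars2, the mitochondrial histidyl enzyme, passed the F test but no single dose in its brightest probe set, and the F test only in 8 of 25 omissions. Its signals were 2.10, 1.59, 1.60 and 1.40 at 0 mM, 1.30, 1.79 and 1.69 at 0.14 mM, 1.30, 0.40 and 1.58 at 0.35 mM, and 1.89, 1.77 and 1.73 at 0.7 mM. Above 0.7 mM the signals were 1.83, 2.31 and 2.03 at 1.4 mM, 2.12, 2.11 and 1.91 at 2.1 mM, 1.52, 1.94 and 1.74 at 2.8 mM, and 2.20, 1.75 and 1.91 at 3.5 mM, and replicate 2 of 0.35 mM was far below every other array. The second Hars2 probe set passed the F test (adjusted p = 0.015) and did pass at 1.4 mM (0.66, limma adjusted p = 0.0434) and at 2.1 mM (0.84, adjusted p = 0.00765), where the brightest had changes of 0.38 and 0.37 (adjusted p = 0.294 and 0.271). The remaining 8 mitochondrial genes, Aars2, Cars2, Iars2, Lars2, Mars2, Nars2, Pars2 and Rars2, passed neither the F test nor any single comparison in their brightest probe sets. Their changes over the 7 doses ran from -0.47 (Cars2 at 1.4 mM, limma adjusted p = 0.413) to 0.60 (Rars2 at 3.5 mM, adjusted p = 0.135).

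Set side by side, enzymes for the same amino acid did not always have changes of the same sign. There are 13 amino acids for which both a cytosolic and a mitochondrial gene of the same letter code were measured. At 2.1 mM 5 of the 13 pairs had log2 changes of the same sign, passed or not, and at 3.5 mM 11 did. A change above 0 was found in 18 of the 35 members at 2.1 mM and in 29 at 3.5 mM. Over all 18193 genes it was found in 9231 and in 12243. Both members of a pair passed at 2.1 mM for 2 amino acids. For valine both fell, Vars by 1.62 and Vars2 by 0.61 on the log2 scale. For threonine the cytosolic Tars rose by 0.66 and the mitochondrial Tars2 fell by 0.63. No array of 2.1 mM overlapped the 0 mM arrays for either, where 2882 of all genes lay wholly above and 2736 wholly below. For tryptophan the cytosolic Wars had a change of -0.36 at 2.1 mM, which did not pass, where Wars2 rose by 0.68. For tyrosine the change was -0.01 in Yars, which did not pass, and 1.05 in Yars2. The differences between the members of a pair were not tested.

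Between 2.8 and 3.5 mM every synthetase gene that passed the test rose. In the limma test 7 of 35 members rose and 0 fell, against 11.2% of probe sets called, 5.59% higher and 5.66% lower. Of the 18193 genes 14.1% were called, 1602 higher and 969 lower, so the called genes as a whole also leaned upward. All arrays of 3.5 mM lay above all of 2.8 mM in 3454 of these genes, and below in 1692. The 7 were Mars1, Qars and Vars of the cytosolic and Ears2, Fars2, Tars2 and Vars2 of the mitochondrial genes. Over all members 30 of 35 had a change above 0, as had 11703 of 18193 genes, with a median of 0.38 in the cytosolic and 0.40 in the mitochondrial class, where the median of all genes was 0.07. These 7 include every member that had fallen at 2.8 mM against 0 mM (Vars, Ears2 and Vars2), in comparisons that share the 2.8 mM arrays. The other steps between neighbouring doses from 0.35 mM upwards called 0 members, as limma with an adjusted p under 0.05 found. At an unadjusted p under 0.05 the number was 1 from 0.35 to 0.7 mM, 3 from 0.7 to 1.4 mM, 0 from 1.4 to 2.1 mM and 0 from 2.1 to 2.8 mM. Over all 18193 genes it was 1423, 1630, 533 and 1247. Of all probe sets 0%, 0%, 0% and 0.0244% were called at these steps.

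Fars2, the mitochondrial phenylalanyl enzyme, showed the highest change of this step. Its signals were 2.84, 3.20, 2.51 and 3.31 at 0 mM, 2.22, 2.35 and 2.43 at 0.14 mM, 2.61, 2.33 and 2.50 at 0.35 mM, and 2.69, 2.79 and 2.64 at 0.7 mM. At the higher doses they were 2.73, 2.67 and 2.59 at 1.4 mM, 2.63, 2.50 and 2.41 at 2.1 mM, 2.84, 2.24 and 1.93 at 2.8 mM, and 2.88, 3.51 and 3.79 at 3.5 mM. The lowest array of 3.5 mM was just above the highest of 2.8 mM. The rise (log2 change 1.06, SE 0.219, limma adjusted p = 0.00375) passed whichever array was left out, and the second Fars2 probe set read higher by 0.55 (adjusted p = 0.0625). Against 0 mM the brightest Fars2 probe set did not pass at any dose (0.43 at 3.5 mM, limma adjusted p = 0.196), while the second passed at 3.5 mM (0.56, adjusted p = 0.0471).

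Vars rose 2.02-fold between these doses (log2 change 1.01, SE 0.303, limma adjusted p = 0.0338), with its arrays of 3.5 mM at 4.27, 4.70 and 5.66 above the highest of 2.8 mM, 4.19. Leaving out 3.5 mM replicate 3 gave a change of 0.62 and the highest adjusted p, 0.244, and the call was also lost without 3.5 mM replicate 2 or 2.8 mM replicates 2 or 3. Mars1, the methionyl enzyme of the complex, had signals of 4.49, 5.15, 4.81 and 5.13 at 0 mM, 4.03, 4.22 and 4.35 at 0.14 mM, 4.83, 4.64 and 4.83 at 0.35 mM, and 4.83, 3.93 and 5.10 at 0.7 mM. From 1.4 mM upwards they were 4.48, 4.79 and 4.98 at 1.4 mM, 4.92, 4.69 and 4.65 at 2.1 mM, 5.06, 4.57 and 4.52 at 2.8 mM, and 5.07, 5.67 and 5.82 at 3.5 mM. Replicate 1 of 2.8 mM and replicate 1 of 3.5 mM nearly met, and the Mars1 rise (log2 change 0.80, SE 0.25, limma adjusted p = 0.0424) was lost in 11 of the 25 omissions (adjusted p 0.0501 to 0.202). They were 0.14 mM replicates 2 and 3, 0.35 mM replicate 1, 1.4 mM replicate 2, the 3 arrays of 2.1 mM, and replicates 2 and 3 of 2.8 and of 3.5 mM. Qars rose by 0.64 (SE 0.15, limma adjusted p = 0.00838), lost without 2.8 mM replicate 3 or 3.5 mM replicate 3 (adjusted p 0.0613 to 0.0676), and 2 of its other 3 probe sets read higher without passing.

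The mitochondrial Tars2 rose by 0.69 (SE 0.18, limma adjusted p = 0.0161), and its second probe set passed too (0.61, adjusted p = 0.0112). Ears2 rose by 0.62 (SE 0.169, limma adjusted p = 0.0195), with changes of -0.05 to 0.05 in its other 3 probe sets. Vars2 rose by 0.56 (SE 0.159, limma adjusted p = 0.027), with replicate 1 of 3.5 mM below replicate 1 of 2.8 mM. The Tars2 and Ears2 calls were lost without 2.8 mM replicates 2 or 3 or 3.5 mM replicate 3 (adjusted p 0.062 to 0.116), and the Vars2 call also without 3.5 mM replicate 2 (adjusted p 0.0738 to 0.185). Over the family, leaving out 3.5 mM replicate 1 raised the 7 calls to 13, while leaving out 3.5 mM replicate 3 or 2.8 mM replicate 3 left 1, 2.8 mM replicate 2 left 2, and 3.5 mM replicate 2 left 4. Against 0 mM, leaving out 3.5 mM replicate 1 raised the cytosolic calls of 3.5 mM from 2 to 5 and the mitochondrial ones from 1 to 2.

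**Figure D3:**
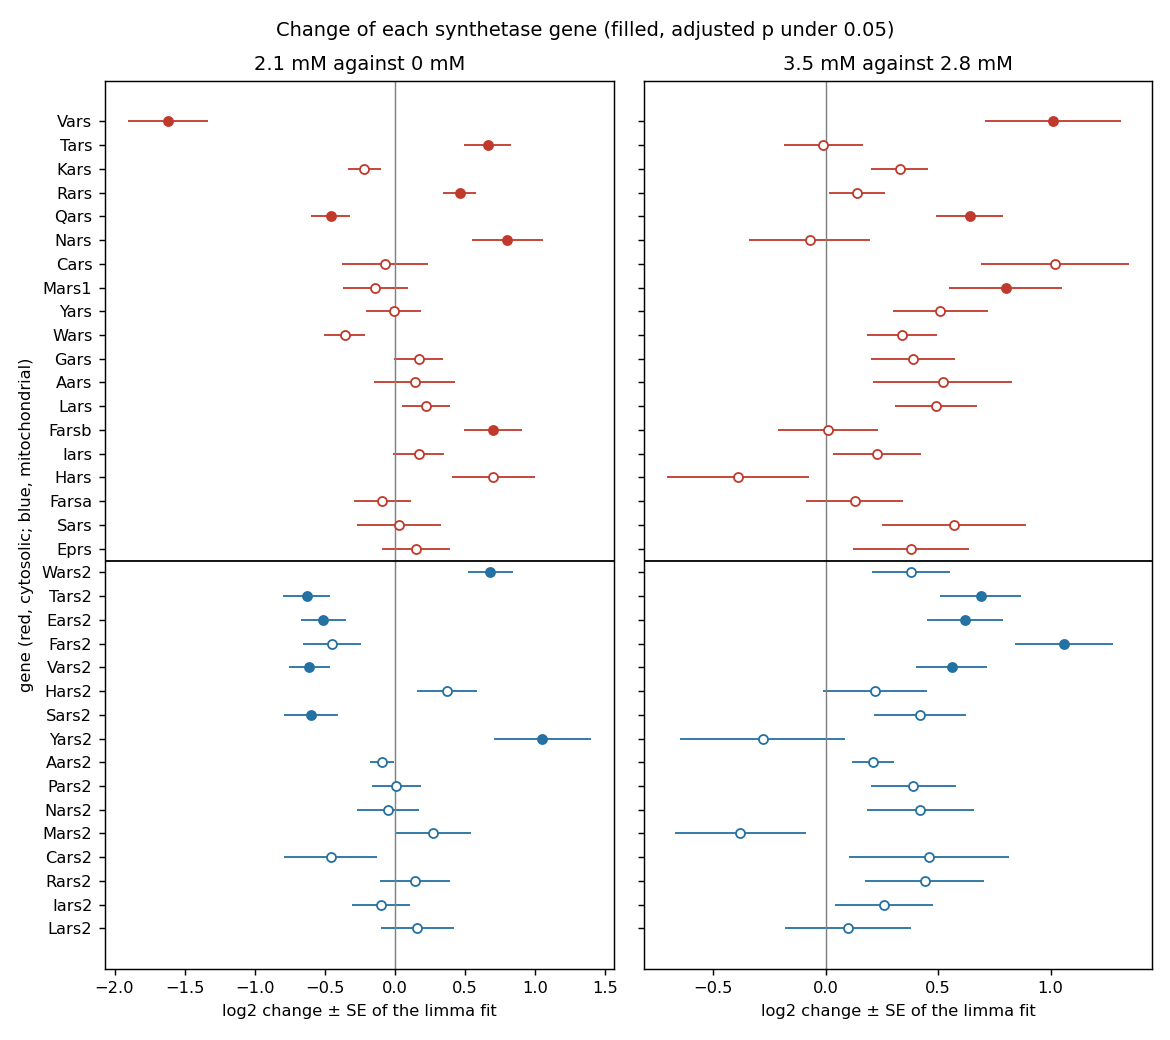
Log2 change with its standard error in the limma fit for each of 35 genes at 2.1 mM against 0 mM (left) and at 3.5 mM against 2.8 mM (right), cytosolic genes in red and mitochondrial in blue; filled points passed an adjusted p of 0.05. On the left 6 members rose and 6 fell, and on the right 7 rose and 0 fell.

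Untreated arrays formed pairs, in opposite directions for the cytosolic and the mitochondrial genes. For 15 of the 19 cytosolic genes, replicates 2 and 4 of 0 mM both lay above replicates 1 and 3, with a median difference of 0.46 between the pairs. For 11 of the 16 mitochondrial genes they both lay below, with a median difference of -0.38. The widest gaps were in Sars, the seryl enzyme, with signals of 5.88, 6.96, 5.81 and 6.96 on replicates 1 to 4, in Cars (difference 1.02) and in Eprs (1.00), and on the mitochondrial side in Cars2 (-0.92) and Rars2 (-0.84). Fars2 was the 1 mitochondrial gene with both replicates 2 and 4 above (0.58), and Hars (-0.79) and Farsa (-0.39) the cytosolic ones with both below. Rars showed no such gap, its 4 arrays lying between 5.56 and 5.65. The pairs were chosen with these values known, and genes of 1 array are not independent, so the counts are a description only. No share over all genes is given for these pairs, so they cannot be called particular to the synthetase genes.

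A contrast of this kind was also seen at 3.5 mM. Replicate 1 was the lowest of the 3 arrays for 16 of 19 cytosolic genes and the highest for 3. Among the 16 mitochondrial genes it was the highest for 9 and the lowest for 4. Sars signals there were 5.80, 6.89 and 7.17, those of Aars 3.92, 4.93 and 5.41, and those of Cars2 2.66, 1.36 and 1.58. The mean of the 19 cytosolic genes relative to 0 mM was -0.02, 0.37 and 0.57 on replicates 1 to 3, and that of the 16 mitochondrial genes 0.41, 0.11 and 0.22. The share of all genes with replicate 1 lowest or highest is not given here.

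A list of 33 measured genes of the amino acid response, which ATF4 is known to drive, had its highest and lowest arrays in the same places. At 0 mM its mean was -0.38, 0.37, -0.30 and 0.31 on replicates 1 to 4, where that of the cytosolic synthetase genes was -0.32, 0.25, -0.13 and 0.20 and that of the mitochondrial ones 0.17, -0.12, 0.16 and -0.20. At 0.14 mM the list mean was -0.40, -0.23 and -0.23, and at 3.5 mM -0.24, 0.44 and 0.63. The macrophage marker mean on replicates 1 to 4 of 0 mM was 5.80, 5.72, 5.81 and 5.67, lower on 2 and 4. That of the markers of other cell types was -0.07, -0.17, -0.04 and -0.13, also lower on 2 and 4. The spike level was low on all 4. What sets the pairs apart was not tested.

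**Figure D4:**
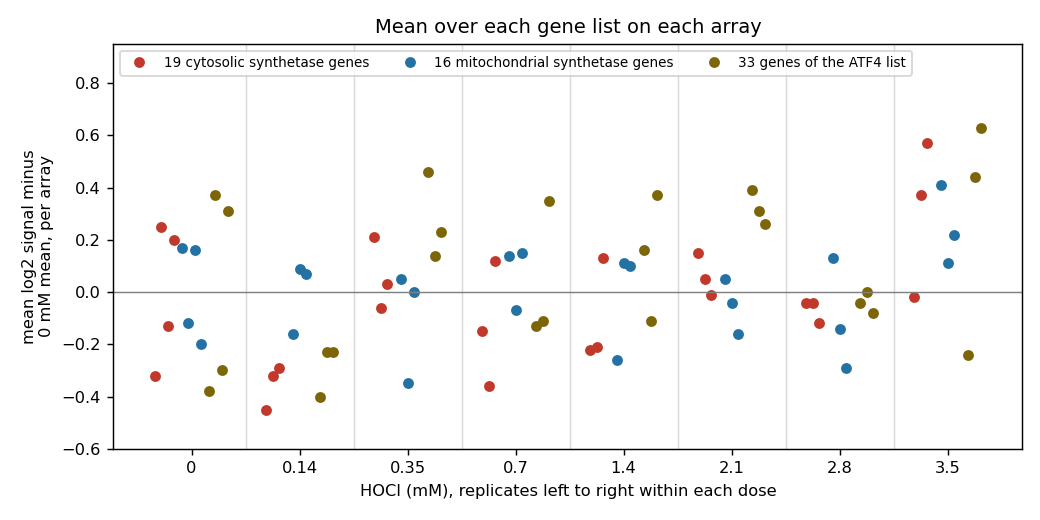
Mean over each gene list of the log2 signal relative to the 0 mM mean (y axis) on each of 25 arrays, by dose (x axis) with replicates from left to right, for 19 cytosolic and 16 mitochondrial synthetase genes and 33 genes of the ATF4 list. At 0 mM the cytosolic and ATF4 lists are high on replicates 2 and 4 and the mitochondrial list is low there, and at 3.5 mM replicate 1 is the lowest array of the cytosolic and ATF4 lists and the highest of the mitochondrial list.

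Of the 33 ATF4 list genes, 13 passed the F test, against 28% of genes. Against 0 mM 0 passed at 0.14 mM, 2 rose and 1 fell at 0.35 mM, 1 rose at 0.7 mM and 2 at 1.4 mM. At 2.1 mM 5 rose and 1 fell, where 15.5% of genes were called, at 2.8 mM 1 rose and 3 fell (14.3%), and at 3.5 mM 0 rose and 1 fell (9.37%). Slc7a11, the cystine importer that is also an NRF2 target, rose at 2.1 mM (log2 change 5.19, SE 0.487, limma adjusted p = 8.17e-06). Xpot, the exporter of tRNA from the nucleus, rose there too (log2 change 0.40, SE 0.112, limma adjusted p = 0.0213; 22 of 25 omissions kept it), while Phgdh, the first enzyme of serine synthesis, fell (log2 change -0.85, SE 0.198, limma adjusted p = 0.00746). From 2.8 to 3.5 mM 8 of the 33 rose and 4 fell, where 14.1% of genes were called. The serine synthesis genes Phgdh (log2 change 1.07, SE 0.211, limma adjusted p = 0.00274) and Psat1 (log2 change 0.74, SE 0.138, limma adjusted p = 0.00166) rose. The amino acid carriers Slc7a11 (log2 change -2.89, SE 0.52, limma adjusted p = 0.00133), Slc38a2 (log2 change -1.60, SE 0.19, limma adjusted p = 3.24e-05) and Slc7a1 (log2 change -0.95, SE 0.189, limma adjusted p = 0.00275) fell. Except for Xpot, these calls passed whichever array was left out.

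Upstream of ATF4, 3 of 6 measured genes of the eIF2 kinases and phosphatase passed the F test, against 28% of genes. Eif2ak3, the kinase PERK that answers stress of the endoplasmic reticulum, fell at 5 of 7 doses, most at 3.5 mM (log2 change -1.27, SE 0.177, limma adjusted p = 0.000109). Ppp1r15b, the constitutive subunit that directs the eIF2 phosphatase, fell at 3.5 mM (log2 change -1.38, SE 0.126, limma adjusted p = 9.21e-07). The falls of both at 3.5 mM passed whichever array was left out. The third gene that passed the F test was Ppp1r15a (adjusted p = 0.0214), which passed at no single dose against 0 mM. Its log2 change was -0.55 at 0.7 mM, 1.09 at 2.8 mM and 0.82 at 3.5 mM (limma adjusted p = 0.606, 0.0721 and 0.194). Eif2ak4, the kinase GCN2 that senses uncharged tRNA, did not pass the F test (adjusted p = 0.313).

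Among the partners of the synthetases, 1 of 3 scaffold genes of the complex passed the F test, against 28% of genes. Eef1e1, which encodes the scaffold protein AIMP3, rose at 0.35, 1.4, 2.1 and 2.8 mM, by 0.60 at 2.1 mM (SE 0.142, limma adjusted p = 0.00798), and that call passed in all 25 omissions, while those at the other 3 doses passed in 20 to 23. Aimp1 and Aimp2 passed in no comparison. Of 5 proofreading and synthetase-like genes 4 passed the F test, against 28% of genes. Aarsd1, which encodes an enzyme that removes wrong amino acids from alanine tRNA, fell at 2.1 mM (log2 change -1.04, SE 0.191, limma adjusted p = 0.00168) and rose from 2.8 to 3.5 mM (log2 change 0.96, SE 0.205, limma adjusted p = 0.00442). Prorsd1, named for its prolyl-tRNA synthetase associated domain, fell at 2.8 mM (log2 change -0.93, SE 0.226, limma adjusted p = 0.011; 24 of 25 omissions kept it) and rose at the last step (log2 change 1.60, SE 0.242, limma adjusted p = 0.000326). Tarsl2, a second cytosolic threonyl enzyme outside the symbol rule, fell at 0.35 and 2.1 mM (log2 change -0.75, SE 0.204, limma adjusted p = 0.0186; 23 of 25 omissions kept it), where Tars rose at 2.1 mM.

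The lists for the steps that follow in translation are short, and 28% of genes passed the F test and 14.1% the step from 2.8 to 3.5 mM. Of 5 measured cytosolic elongation factor genes 1 did in the F test, Eef1d, with a rise of 0.26 at 3.5 mM (limma adjusted p = 0.0333; 20 of 25 omissions kept it). Of 4 genes that finish mitochondrial aminoacyl-tRNAs, Gatb, a subunit of the amidotransferase that makes glutaminyl-tRNA, rose from 2.8 to 3.5 mM (log2 change 0.66, SE 0.145, limma adjusted p = 0.00531). Of 8 mitochondrial translation factor genes, Mrrf, the ribosome recycling factor, rose at the same step (log2 change 0.64, SE 0.106, limma adjusted p = 0.000733). Both calls passed whichever array was left out, and each was the only call of its list at this step. Changes ran from -0.44 to 0.66 (median 0.03) in the list of Gatb and from -0.22 to 0.64 (median 0.40) in that of Mrrf.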

How the data were processed

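Cells of the mouse line RAW 264.7 had been kept for 6 h with 0 to 3.5 mM HOCl, and their RNA was hybridised to 25 Affymetrix Mouse 430 2.0 arrays. What the authors deposited are log2 signals for each probe set; RMA is named per the submitters' processing notes, with no version. Each array has a median of 0. The log base was inferred from the range of values, and quartiles differ between arrays. Raw intensity files were not used here. The number of arrays limits the precision.

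After control probe sets were set aside, 45037 were tested with no filter on signal; 34945 of these have 1 gene symbol in the array annotation, 932 several and 9160 none. The limma package (3.58.1, R 4.3.3) fitted 1 mean for each dose over the 25 arrays, and Benjamini-Hochberg adjustment of two-sided p-values ran over all probe sets of a comparison (threshold 0.05). The fit was tested on simulated data with known changes.

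The members, lists, motifs and comparisons were chosen with earlier results of these data known, so no score over the family was tested. Membership of the multi-synthetase complex was taken from textbook knowledge. Every array is given for up to 10 members of each class with the lowest F test p (10 cytosolic and 8 mitochondrial), members that passed at most doses and members that changed against their class. Other members are given by range and count. Up to 4 genes of each further list with the lowest F test p are named, and Psat1, Xpot and Eif2ak4 were chosen after their values were seen. Replicate numbers were not taken to pair the arrays. The residuals of same-numbered arrays correlated above 0.1 in 19 of 84 pairs, with a median of -0.0256 and a range of -0.698 to 0.555. Arrays of different numbers were not compared in this check, so it cannot settle whether some arrays were paired. Alternatives are given in the closing section. Spike levels are those of the poly-A control probe sets, divided at 1.436.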

Additional observations from a re-analysis of the deposited data

Results flagged for a closer look

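Among the 4 arrays at 0 mM, replicate 3 stood apart for 1 gene, Yars2, the mitochondrial tyrosyl enzyme. Its log2 signal there was 2.63, against 1.78, 1.77 and 1.64 on the other 3 arrays. The gap exceeded Dixon's 95% critical value for 4 samples. All 35 members were looked at, and chance alone gives such a gap in about 1 of 20 groups. The Yars2 rise at 2.1 mM had its lowest adjusted p in the fit without that array (limma, 0.0177).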

How the results depend on the processing

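Of the 35 single-gene calls, 6 passed in all 25 fits that left out 1 array: Vars at 1.4, 2.1 and 2.8 mM, Rars and Wars2 at 3.5 mM, and Fars2 from 2.8 to 3.5 mM. Over 875 gene and array combinations 746 kept the call, 129 lost it and 0 changed direction. Leaving out dim probe sets ended 0 of the 35, a trended and robust prior 1, quantile normalization 6, the probe set of largest variance 6 with 1 more reversed (Qars at 2.1 mM, 0.15), fitting only the groups compared 18, and the spike level as a term 28. The cause was not tested.

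With 1 array left out, the cytosolic count ranged from 0 to 4 at 0.35 mM, 1 to 3 at 1.4 mM, 1 to 6 at 2.1 mM, 1 to 4 at 2.8 mM, 1 to 5 at 3.5 mM and 5 to 12 in the F test. The mitochondrial count ranged from 0 to 1 at 0.35 mM, 0 to 5 at 1.4 mM, 1 to 6 at 2.1 mM, 0 to 4 at 2.8 mM, 1 to 2 at 3.5 mM and 5 to 7 in the F test. The range was 0 to 4 from 0.14 to 0.35 mM and 1 to 13 from 2.8 to 3.5 mM.

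With the spike level as a term 3 cytosolic and 2 mitochondrial genes passed the F test (main 9 and 6), 0 at 0.35 to 3.5 mM in either class, and 0 from 0.14 to 0.35 mM. On low spike level arrays only, 0 of either class passed the F test, which then covers fewer doses, and 1 cytosolic gene at 0.35 mM. Fitting only the groups compared called 0 cytosolic genes at 0.35 mM, 1 at 1.4 mM and 1 at 3.5 mM, 1 mitochondrial gene at 1.4 mM and 1 at 2.8 mM, 7 members from 0.14 to 0.35 mM and 1 from 2.8 to 3.5 mM. Quantile normalization called 4 cytosolic genes at 1.4 mM and 5 members from 0.14 to 0.35 mM. Leaving out dim probe sets called 4 mitochondrial genes at 2.8 mM and 4 members from 0.14 to 0.35 mM, and the trended and robust prior called 2 there. The probe set of largest variance called 1 cytosolic gene at 1.4 mM, 1 mitochondrial gene at 2.8 mM and 2 members from 0.14 to 0.35 mM.

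The replicate number as a block, which was not taken as a pairing in the main fit, kept 23 of the 35 calls. With this replicate block 0 cytosolic genes were called at 0.35 mM, 1 at 1.4 mM and 1 at 3.5 mM, 1 mitochondrial gene at 1.4 mM, and 2 members from 0.14 to 0.35 mM. A dim probe set such as that of Mars2 gives a compressed change.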

Other observations

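At 0.35 and 0.7 mM replicate 3 was the array with a high spike level, and some synthetase genes stood apart on it within their dose. Hars signals were 5.08, 4.98 and 5.58 at 0.35 mM and 4.77, 4.24 and 5.66 at 0.7 mM. Yars2 signals were 2.36, 1.83 and 2.98, and 2.77, 2.05 and 3.15. On both arrays these genes were near or above their level at 2.1 mM, where Hars was at 5.38, 5.26 and 5.18 and Yars2 at 3.34, 2.94 and 2.75. Vars was at 3.53 and 3.68 on the same arrays, close to its 3.53, 3.56 and 3.48 at 2.1 mM. The pattern was noticed after the values were seen and was not tested.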
